A study of Drosophila melanogaster with 3 samples.

Results

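The vacuolar ATPase (V-ATPase) subunit genes were taken as every protein-coding gene of the Ensembl BDGP6 annotation whose symbol starts with Vha, which gave 33 of 13968 protein-coding genes. Chromatin immunoprecipitation followed by sequencing (ChIP-seq) located CG34224, a protein known by its gene number, in Drosophila melanogaster embryos. The flies carried a transgene for CG34224 joined to eGFP, a green fluorescent protein variant, and chromatin from whole embryos aged 0 to 24 h was precipitated with an antibody against GFP. Per the labels the 3 libraries are biological replicates of 1 group, so the design holds no contrast between conditions, and tissues and stages of the whole embryo are mixed in each. The control experiment that the labels point to was not analysed here, and peak lists hold no expression values against which the stage or tissue could be checked. A gene was called bound when a peak summit of the authors' conservative list for the whole series lay within 500 bp of one of its annotated start sites.

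The V-ATPase is a rotary proton pump that acidifies lysosomes, endosomes and secretory vesicles, and in some insect epithelia it energises the outer membrane for ion transport. Its peripheral V1 sector (subunits A to H) hydrolyses ATP, and its membrane V0 sector (subunits a, c, c'', d and e) carries protons. In flies several subunits are encoded by more than 1 gene, numbered after a hyphen (Vha16-1 to Vha16-5), while others have a single gene.

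The promoters on which the later comparisons turn are shown from 220 bases before to 30 bases from the annotated start site, on the coding strand, 5' to 3'. They were read from the RefSeq genome of Release 6 (dm6). VhaSFD, Vha26, Vha13 and VhaM9.7-a were bound and hold a searched sequence. Vha68-1 and Vha16-5 were bound and stand beside the unbound paralogues Vha68-2 and Vha16-2. Vha55 lay in no thresholded list although its ranked scores were at the maximum. Capitals mark the sequences searched on both strands: the DNA replication-related element (DRE, TATCGATA), its core ATCGAT, which lies within every DRE, the core of the E-box reported at fly core promoters (CAGCTG), the core of promoter Motif 1 (GGTCACAC), the CLEAR-type E-box core CACGTG, the GAGA repeat (GAGAGAG) and the TATA box (TATAAA).
VhaSFD (chr2L:16727797-16728046, minus strand): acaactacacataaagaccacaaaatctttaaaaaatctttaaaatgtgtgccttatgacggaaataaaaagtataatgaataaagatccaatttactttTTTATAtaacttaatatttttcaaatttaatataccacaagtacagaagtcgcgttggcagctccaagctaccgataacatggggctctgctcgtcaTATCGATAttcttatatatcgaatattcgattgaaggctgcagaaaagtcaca
Vha26 (chr3R:5591543-5591792, plus strand): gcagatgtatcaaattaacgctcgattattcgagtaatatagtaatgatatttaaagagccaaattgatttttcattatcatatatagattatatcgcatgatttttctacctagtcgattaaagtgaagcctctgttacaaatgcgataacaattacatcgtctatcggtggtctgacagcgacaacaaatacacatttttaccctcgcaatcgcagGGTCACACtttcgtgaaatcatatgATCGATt
Vha13 (chr3R:19644357-19644606, minus strand): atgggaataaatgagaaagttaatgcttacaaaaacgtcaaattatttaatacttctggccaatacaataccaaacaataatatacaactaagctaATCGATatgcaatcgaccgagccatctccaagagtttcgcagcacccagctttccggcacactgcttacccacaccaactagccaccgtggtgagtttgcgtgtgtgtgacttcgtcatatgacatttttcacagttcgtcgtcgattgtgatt
VhaM9.7-a (chr3L:4262485-4262734, plus strand): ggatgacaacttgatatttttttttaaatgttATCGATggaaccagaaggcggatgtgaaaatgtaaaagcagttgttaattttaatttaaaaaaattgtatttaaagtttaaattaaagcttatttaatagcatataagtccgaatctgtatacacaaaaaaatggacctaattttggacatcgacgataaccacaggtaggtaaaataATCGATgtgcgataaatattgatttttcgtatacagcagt
Vha68-1 (chr2L:13004078-13004327, minus strand): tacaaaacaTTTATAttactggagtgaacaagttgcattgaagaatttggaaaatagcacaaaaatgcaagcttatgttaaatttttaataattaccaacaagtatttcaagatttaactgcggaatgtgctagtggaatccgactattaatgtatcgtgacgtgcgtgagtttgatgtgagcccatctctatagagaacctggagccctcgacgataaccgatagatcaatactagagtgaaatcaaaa
Vha68-2 (chr2L:12974102-12974351, plus strand): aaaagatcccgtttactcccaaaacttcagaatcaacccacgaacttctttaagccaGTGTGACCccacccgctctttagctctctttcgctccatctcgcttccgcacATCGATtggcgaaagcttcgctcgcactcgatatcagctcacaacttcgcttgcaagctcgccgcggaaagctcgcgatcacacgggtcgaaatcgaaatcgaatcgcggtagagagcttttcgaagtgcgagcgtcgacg
Vha16-5 (chr2L:10737014-10737263, minus strand): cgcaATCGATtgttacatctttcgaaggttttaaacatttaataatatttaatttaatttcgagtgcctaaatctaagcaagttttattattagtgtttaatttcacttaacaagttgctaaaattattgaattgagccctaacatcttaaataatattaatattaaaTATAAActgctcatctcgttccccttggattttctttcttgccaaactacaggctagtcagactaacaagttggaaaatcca
Vha16-2 (chr3L:11474738-11474987, plus strand): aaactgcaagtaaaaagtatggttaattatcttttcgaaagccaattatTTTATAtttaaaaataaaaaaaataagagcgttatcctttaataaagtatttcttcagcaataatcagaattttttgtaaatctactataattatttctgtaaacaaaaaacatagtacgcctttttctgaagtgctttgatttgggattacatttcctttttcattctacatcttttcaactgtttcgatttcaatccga
Vha55 (chr3R:12627800-12628049, minus strand): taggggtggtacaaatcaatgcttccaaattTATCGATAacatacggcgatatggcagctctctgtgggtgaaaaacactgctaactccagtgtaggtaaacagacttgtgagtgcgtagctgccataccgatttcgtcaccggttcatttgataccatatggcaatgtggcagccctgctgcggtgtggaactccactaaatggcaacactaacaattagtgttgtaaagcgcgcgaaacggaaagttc

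Of the 33 V-ATPase genes, 12 (36.4%) were bound in the conservative list, beside 29.7% of all protein-coding genes. The bound genes were Vha68-1, Vha44, Vha36-1, Vha26, Vha13, VhaSFD, Vha100-2, Vha16-1, Vha16-5, VhaM9.7-a, VhaM9.7-b and VhaAC45. In the thresholded lists of the replicates, 8 members (24.2%) had a peak in replicate 1 beside a background of 21.1%, 7 (21.2%) in replicate 2 beside 22.3%, and 13 (39.4%) in replicate 3 beside 28.6%. The share over replicates was 28.3% ± 9.74 (SD, n = 3) for the V-ATPase genes and 24.0% ± 4.07 for all protein-coding genes, a gap smaller than the spread of the members' share between replicates. Both shares come from the same lists and both were highest in replicate 3, so neither SD is the spread of the gap itself. Genes are not replicates, and no test was made of the list. A peak in all 3 replicate lists was held by 5 members (15.2%), Vha68-1, VhaSFD, Vha16-1, Vha16-5 and VhaM9.7-a, beside 17.3% of all protein-coding genes. The members' share thus lay above the background in the conservative list and in replicates 1 and 3, and below it in replicate 2 and in the count over all 3 replicates.

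**Figure D1:**
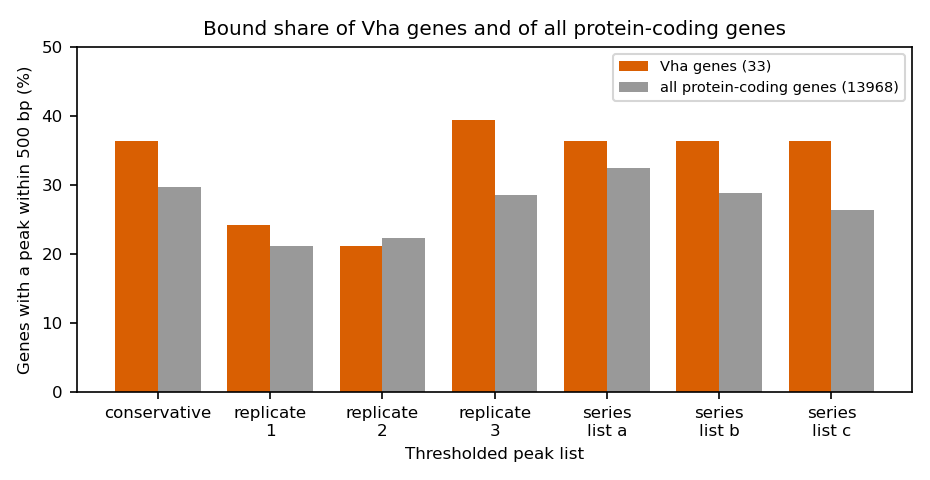
Share of the 33 V-ATPase genes (orange) and of all 13968 protein-coding genes (grey) with a summit within 500 bp of a start site, in percent, for each thresholded list; there are no error bars because each bar is 1 list. The members' share is the higher in 6 of the 7 lists and the lower in replicate 2, 21.2% against 22.3%. The series lists draw on the same libraries as the replicate lists, so the 7 lists are not separate observations.

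Sequencing depth is unknown, since no read counts accompany the peaks, and list length is the only value related to it. The thresholded lists held 2667, 2844 and 4146 peaks in replicates 1, 2 and 3, the conservative list held 4395, and the replicate with the longest list also had the most bound members. The conservative list does not represent the replicates equally. Every one of its peaks on the main chromosomes lay in a ranked series list whose compared intervals equalled those of replicate 2 (68.8%) and replicate 3 (83.2%), while at most 0.00519% equalled those of replicate 1. Of the 12 bound members, 5 were in all 3 replicate lists, 3 in 2, 3 in 1 and 1 in none. Among all bound protein-coding genes 57.6% were in all 3 replicate lists and 8.62% in none, and the difference from the members was not tested.

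The peaks at the bound members had middling signals. Within the conservative list their signal percentile, the share of peaks with a signal at or below theirs, had a median of 45.2 and a range of 14.8 to 77.6, beside a median of 64.5 over all bound protein-coding genes. The signal is the value of the authors' peak caller on an unstated scale and compares only peaks of 1 list. The strongest of the 12 was at Vha16-5 and the weakest at VhaM9.7-b.

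**Figure D2:**
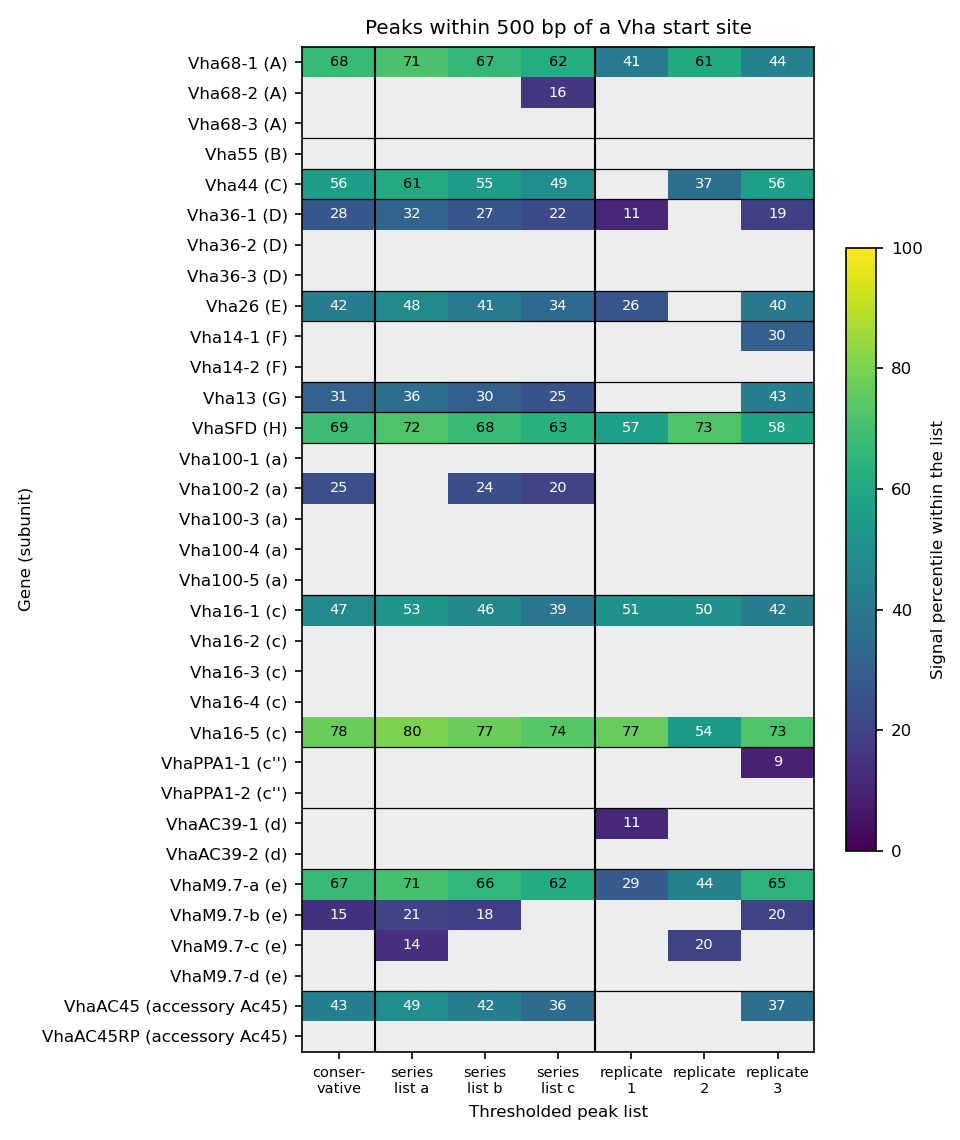
Signal percentile (0 to 100, colour and number) of the strongest peak within 500 bp of a start site of each V-ATPase gene (rows, subunit in brackets) in 7 thresholded lists (columns); grey marks no peak. Filled rows belong mostly to 1 gene of each subunit, and 16 rows are empty throughout.

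In the V1 sector the catalytic subunit A, which binds and hydrolyses ATP, has 3 genes, of which Vha68-1 was bound in every list. Its conservative peak (2L 13004083 to 13004295, dm6) had a signal of 318 (percentile 67.5) with the summit 87 bp upstream, and a second summit lay 350 bp upstream with a signal of 255. The replicate signals were 79.9, 102 and 109 in replicates 1, 2 and 3. The summits of replicates 1 and 2 lay 375 and 377 bp upstream, in the 5' UTR of the divergent gene mTor, the TOR kinase, and that of replicate 3 lay 73 bp upstream. The replicates therefore placed their summits at opposite ends of the shared promoter. Vha68-2 had a peak only in the shortest series list, 29 bp upstream with a signal of 137 and a score of 852, where the lowest score of a thresholded list was 830. Its ranked scores were 592, 77 and 734 in replicates 1, 2 and 3, all under that minimum. Vha68-3, which lies next to Vha68-2, had no ranked peak in any replicate.

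Subunit B, the second nucleotide-binding subunit of V1, has the single gene Vha55 (3R 12623762 to 12627829, minus strand), and it was absent from every thresholded list. In the ranked lists, however, its peak had the maximum score of 1000 in all 3 replicates. The ranked signals were 59.4 in replicate 1, 39.0 in replicate 2 and 117 in replicate 3, with summits 76, 263 and 190 bp upstream. The 4 ranked series lists, which draw on the same libraries, each gave a signal of 170 with the summit 115 bp upstream, at a score of 939 to 1000. A score of at least 830 in all 3 replicates together with absence from all thresholded lists was found for 53 protein-coding genes (0.379%), of which Vha55 was the 1 member. The divergent gene Snx3, a sorting nexin, had its start 126, 61 and 12 bp from the same summits, and was the nearer gene in replicates 2 and 3.

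Other peaks near Vha55 did pass into the thresholded lists. The nearest conservative summit lay 2741 bp upstream of Vha55, 77 bp from the start of Not10, and the ranked peak there scored 1000 in each replicate. Ranked peaks at or above 830 with no equal interval in the thresholded list of the same replicate numbered 104 of 2771, 91 of 2932 and 148 of 4293 in replicates 1, 2 and 3. The deposited descriptions name 1 input file for the thresholded lists that is missing from the inputs of the ranked lists, and they do not say what it holds. Its part in the absence of Vha55 was not tested.

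**Figure D3:**
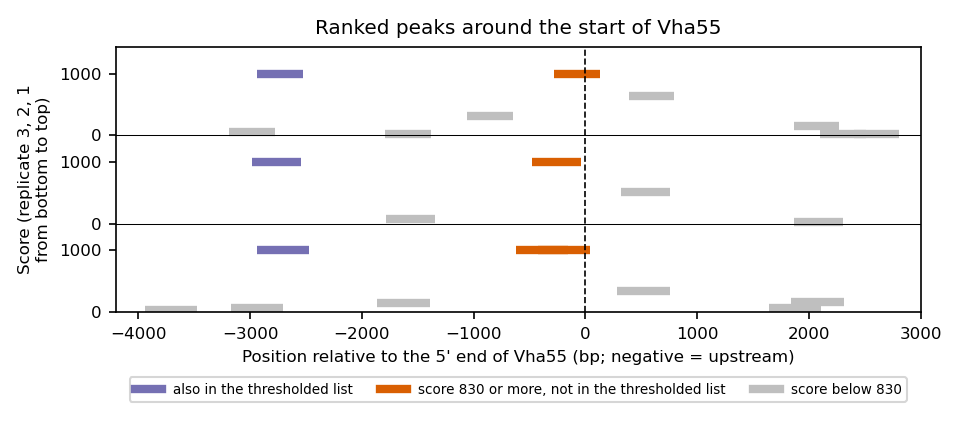
Ranked peaks (bars spanning their width) by position in bp from the 5' end of Vha55 and by score from 0 to 1000, for replicates 1, 2 and 3 from top to bottom. The bars at the start site (orange) score 1000 in every replicate but are not in the thresholded list, unlike the bars near Not10 (purple), whose summits lie 2734, 2762 and 2708 bp upstream.

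Subunit C, which ties the stators to the membrane sector, has the single gene Vha44, bound at 2R 16336471 to 16337006 with a signal of 251 (percentile 56.1) and the summit 102 bp upstream. It was in the lists of replicates 2 and 3 with signals of 70.7 and 129 and summits 101 and 81 bp upstream. In replicate 1 it stayed below the threshold with a ranked score of 768. In each of these lists the summit fell in the 5' UTR of the divergent gene Hmgs, a synthase of the mevalonate pathway.

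Subunit D, the central shaft that rotates within V1, has 3 genes and only Vha36-1 had a thresholded peak. The conservative peak (2R 15541126 to 15541661) had a signal of 164 (percentile 27.6) and its summit 41 bp upstream, with a second, weaker summit of 74.1 at 158 bp downstream. Replicate 1 gave a signal of 52.4 and replicate 3 one of 81.4, at 25 bp upstream and 26 bp downstream, and replicate 2 reached a ranked score of 784. Vha36-2 had no ranked peak, and Vha36-3 had a single ranked peak of score 30 in replicate 3.

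Subunits E and G form the outer stalks that hold V1 still against the turning rotor, and each is encoded by a single bound gene. Vha26 (E) had a conservative signal of 201 (percentile 41.9) with the summit 93 bp upstream (3R 5591402 to 5591937). It had signals of 66.3 and 103 in replicates 1 and 3, at 128 and 93 bp upstream, and a ranked score of 568 in replicate 2. Vha13 (G) had a signal of 172 (percentile 31.4) at 3R 19644006 to 19644541, with the summit 112 bp downstream in its own coding exon. A second summit of 66.9 lay 167 bp upstream. Only the list of replicate 3 held Vha13, with a signal of 108 at 83 bp downstream, and the ranked scores of 732 and 825 in replicates 1 and 2 stayed below 830. The nearest thresholded summits of replicates 1 and 2 lay 639 and 647 bp upstream, 1 and 7 bp from the start of Nup58, a nuclear pore gene.

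Subunit H, a regulatory subunit of V1, has the single gene VhaSFD, which was bound in every list. The conservative signal was 326 (percentile 68.7) with the summit 60 bp downstream in the gene's own 5' UTR (2L 16727704 to 16727909). Signals were 99.5, 125 and 133 in replicates 1, 2 and 3, with the strongest summits 56, 28 and 149 bp downstream. Replicate 3 also listed a weaker summit 64 bp upstream, with a signal of 70.5. No other protein-coding start site lay within 500 bp of the conservative summit. Subunit F, part of the central rotor, had no bound gene. Vha14-1 appeared in the list of replicate 3 alone, with a signal of 93.7 at 139 bp downstream, had no ranked peak in the other replicates, and Vha14-2 had no ranked peak in any.

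In the V0 sector, subunit a holds the half-channels for protons and steers the pump to its membrane, and 1 of its 5 genes was bound. Vha100-2 had a conservative signal of 157 (percentile 24.6) with the summit 23 bp upstream, in an intron of Vti1b, a SNARE gene (3R 18398924 to 18399459). It was the 1 bound member absent from all replicate lists. Vha100-2 has 2 annotated start sites, and the conservative summit lay at the outer one. The nearest thresholded summits of the replicates lay 603, 617 and 589 bp upstream of the other, internal start site. They were 536, 550 and 522 bp from the start of Vti1b and not at the place of the conservative summit. In the ranked lists the highest scores at Vha100-2 were 628, 278 and 814. Vha100-1 had ranked scores of 86, 104 and 623, Vha100-4 had a score of 88 and Vha100-5 one of 30 in replicate 3 alone, and Vha100-3 had no ranked peak.

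Subunit c, the proteolipid whose ring carries protons across the membrane, has 5 genes, and both bound genes were in every list. Vha16-5 had the highest signal of the family, 413 (percentile 77.6), at 2L 10737185 to 10737434. Its signals were 141, 92.0 and 176 in replicates 1, 2 and 3. The summit was also the most distant of the bound members, 277 bp upstream in the conservative list and 306, 331 and 306 bp in the replicates, close to CG12299, whose start lay 25 bp from the conservative summit. Vha16-1 had a signal of 217 (percentile 47.2) with the summit 3 bp upstream (2R 6633073 to 6633248), and replicate signals of 90.7, 85.9 and 106 at 41, 99 and 5 bp upstream. The 3 other genes had no score above 26. Vha16-2 and Vha16-4 each had a ranked peak of score 26 in replicate 1 alone, and Vha16-3 had none. At 277 bp Vha16-5 was the bound member nearest to the 500 bp limit, and among the unbound members the nearest conservative summit was that of VhaAC39-2, at 1397 bp. In the lists of replicates 1 and 2 the nearest summits of Vha13 (639 and 647 bp) lay just outside the limit. The nearest replicate summits of Vha100-2 (589 to 617 bp) did so only as measured from its internal start site. With a limit of 1000 bp the strongest conservative peak counted for Vha100-2 had a signal percentile of 41.5 in place of 24.6. That was a different peak, counted through the internal start site and 543 bp from the start of Vti1b. For Vha13 the percentile at 1000 bp was 78.4 in place of 31.4.

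Neither gene of the ring subunit c'' was bound. VhaPPA1-1 was in the list of replicate 3 with a signal of 64.9 (score 967), at 75 bp downstream, and had ranked scores of 53 and 526 in replicates 1 and 2. VhaPPA1-2 had ranked scores of 35 and 361 in replicates 2 and 3. Subunit d, which couples the ring to the central shaft, had no bound gene either. VhaAC39-1 was in the list of replicate 1 with a signal of 52.2 (score 866) at 23 bp downstream and had scores of 76 and 101 in the others. VhaAC39-2 had scores of 26, 112 and 30, and its nearest conservative summit, of signal 948, lay 57 bp from the start of unk.

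Subunit e, a small membrane protein of V0, has 4 genes, of which 2 were bound. VhaM9.7-a had a conservative signal of 315 (percentile 67.2) with the summit 138 bp upstream (3L 4262299 to 4262834) and was in every replicate list, with signals of 68.6, 78.1 and 149 at 194, 27 and 108 bp upstream. VhaM9.7-b had the lowest signal of the bound members, 131 (percentile 14.8), at 11 bp upstream (3L 21539583 to 21540118). Of the replicate lists only that of replicate 3 held it, with 82.1 at 7 bp upstream, beside ranked scores of 626 and 76 in replicates 1 and 2. In series lists a and b, further thresholded lists of the whole series, its strongest summit was a different one. That summit lay 396 bp upstream with a signal of 141, 19 bp from the start of the divergent gene COX8. Series list c did not hold VhaM9.7-b. VhaM9.7-c was in the list of replicate 2 (signal 55.4, score 925) and in the longest series list, and reached a ranked score of 747 in replicate 3. VhaM9.7-d had scores of 26 and 326 in replicates 1 and 3. The accessory glycoprotein gene VhaAC45 was bound at 2R 9207401 to 9207936 with a signal of 204 (percentile 43.2), its summit 108 bp downstream in its own 5' UTR. Replicate 3 gave 100 at 131 bp downstream, and the ranked scores of 420 and 80 in replicates 1 and 2 were below the threshold. Its paralogue VhaAC45RP had a score of 173 in replicate 3 alone.

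Set side by side, 4 of the 5 subunits with a single gene were bound (C, E, G and H), with B the exception described above. Of the 9 subunits with several genes, 3 had no bound gene, 4 had 1 and 2 had 2, so that 8 of 28 such genes (28.6%) were bound. By sector, 6 of 13 V1 genes (46.2%), 5 of 18 V0 genes (27.8%) and 1 of 2 accessory genes were bound. Beside the 29.7% of all protein-coding genes, the shares of the genes with paralogues and of V0 lay near the background, the remaining shares rest on few genes, and no difference between these classes was tested. Genes with several annotated start sites have more chances to be called. Among the members 9 of 25 genes with 1 start site and 3 of 8 with several were bound. All protein-coding genes were not split in this way, so these counts have no background, and their difference was not tested.

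The ranked lists, which hold 40130, 31426 and 57471 peaks in replicates 1, 2 and 3, give the members below the threshold. A ranked peak of any score in all 3 replicates was held by 18 members (54.5%), beside 6981 of the 13968 protein-coding genes. A score of at least 830 in all 3 was held by 6 members (18.2%), beside 17.7%. No ranked peak in any replicate was found for 5 members (15.2%), Vha68-3, Vha36-2, Vha14-2, Vha100-3 and Vha16-3, beside 22.3% of all protein-coding genes. All 5 belong to a subunit with more than 1 gene, as do 28 of the 33 members. In total 17 members were in at least 1 of the 7 thresholded lists and 16 in none. No such share was taken over all protein-coding genes, so this count cannot be set against a background.

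**Figure D4:**
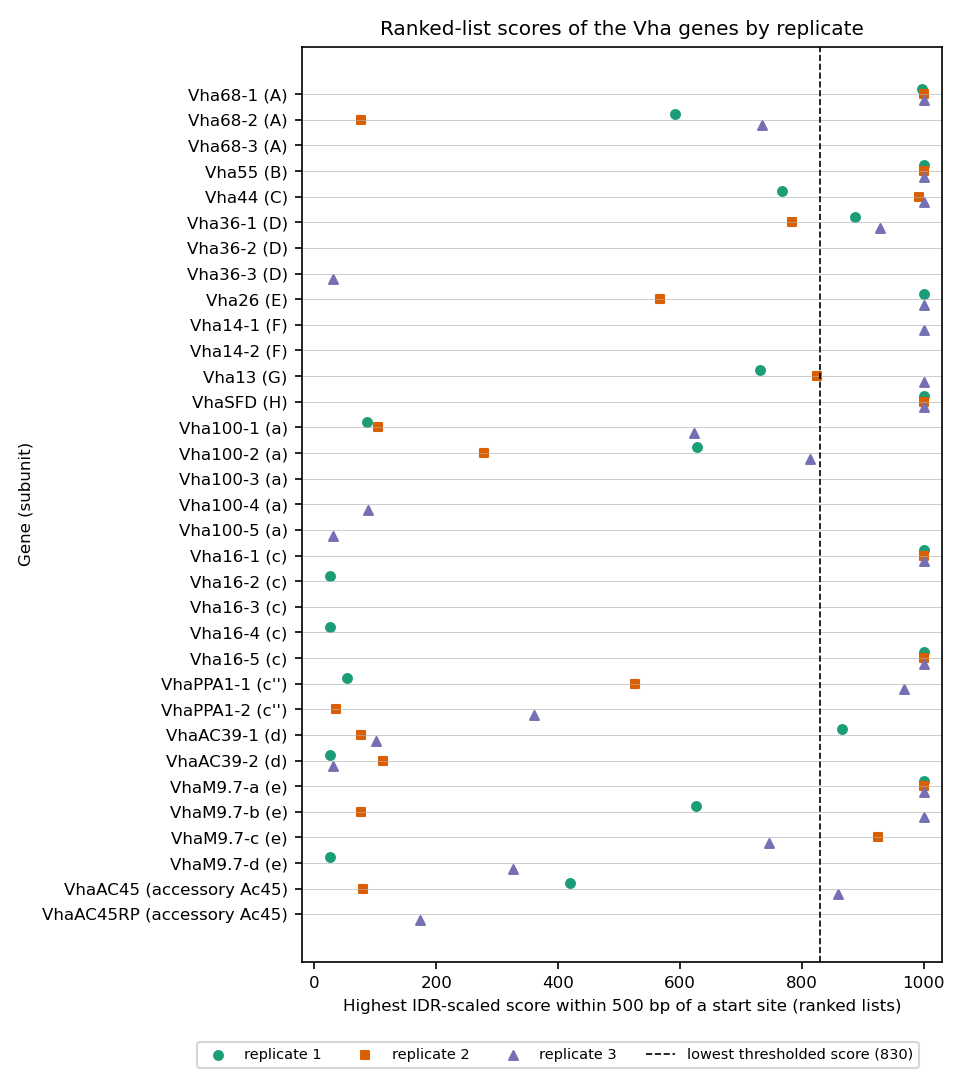
Highest ranked-list score (0 to 1000) within 500 bp of a start site of each V-ATPase gene in replicate 1 (circles), 2 (squares) and 3 (triangles); the dashed line is the lowest score of the thresholded lists, 830, and a missing symbol means no ranked peak. Vha55 stands with the genes whose 3 symbols lie to the right of the line, while 5 genes have no symbol.

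Since a bound gene is one with a summit within 500 bp, nearness to the start site is partly set by the rule. The strongest conservative summit lay upstream in 9 members and downstream in 3 (Vha13, VhaAC45 and VhaSFD), beside 78.4% upstream over all bound protein-coding genes. It lay within 150 bp in 11 of 12 members, beside 74.9% of all bound protein-coding genes, with a median position of -32 bp (negative is upstream) beside -57 bp over all bound protein-coding genes. For 7 of the 12 the same summit lay within 500 bp of another protein-coding start site, beside 53.7% of all bound protein-coding genes, and all 7 neighbours were transcribed in the opposite direction away from the shared region. The member was nearer than the neighbour at Vha26 (93 against 211 bp for noi, a splicing factor gene), Vha68-1 (87 against 286 bp for mTor) and VhaM9.7-b (11 against 404 bp for COX8, a cytochrome oxidase subunit gene). The neighbour was nearer at Vha16-5 (277 against 25 bp for CG12299), Vha44 (102 against 21 bp for Hmgs), Vha36-1 (41 against 31 bp for CG8187) and VhaM9.7-a (138 against 97 bp for CG11586). Peak lists do not tell which gene of such a pair a peak belongs to. When all summits of a gene were used and each counted only for its nearest gene, 10 members remained bound and Vha16-5 and Vha44 did not.

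**Figure D5:**
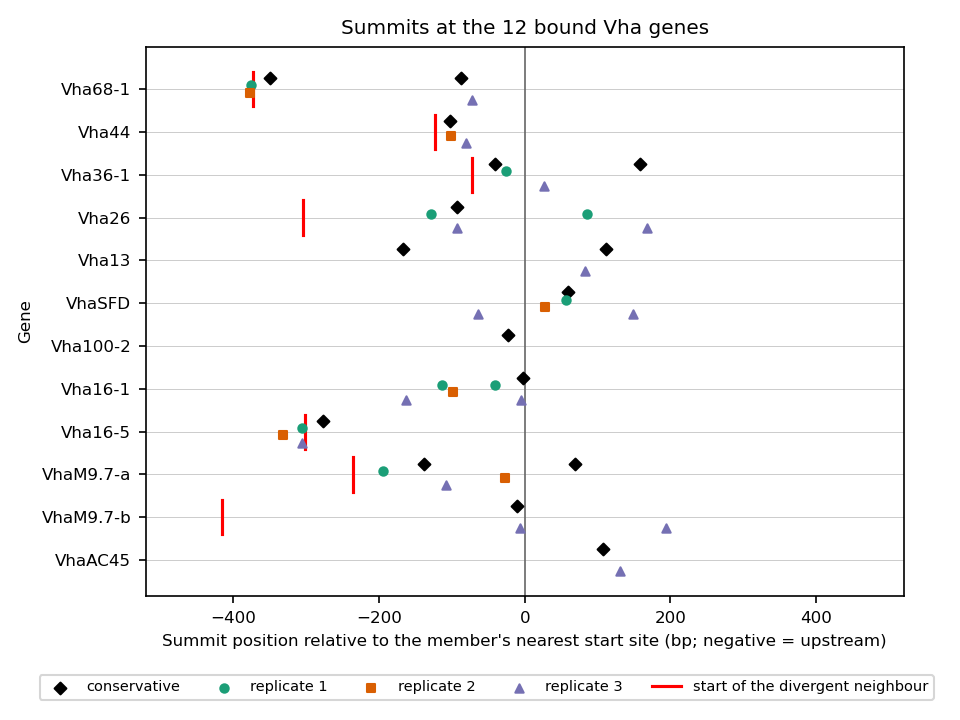
Position of every summit within 500 bp of the nearest start site (0) of the 12 bound V-ATPase genes, in bp with negative values upstream, in the conservative list (black) and in replicates 1, 2 and 3 (colours); red bars mark the start of the divergent neighbour. At Vha68-1 the summits of replicates 1 and 2 sit on the red bar and that of replicate 3 near 0, and Vha100-2 has a conservative summit only.

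The sequences marked in the promoters above were counted from 250 bases before to 50 bases after the start of each gene. A DRE was held by 2 of 33 V-ATPase promoters (6.06%), VhaSFD and Vha55, beside 9.36% of all protein-coding promoters, 25.6% of bound and 2.5% of unbound ones. At VhaSFD it lay 23 to 16 bases before the start, and at Vha55 189 to 182 bases before it. The DRE core was held by 10 members (30.3%), beside 23.3% of all protein-coding promoters. It was in 6 of the 12 bound members (Vha13, Vha16-5, Vha26, Vha36-1, VhaM9.7-a and VhaSFD), beside 49.7% of all bound genes, and in 4 of the 21 unbound members (Vha55, Vha68-2, VhaAC45RP and VhaPPA1-2), beside 12.1% of all unbound genes. VhaM9.7-a held 2 copies, 188 to 183 and 10 to 5 bases before the start. Between the paralogues shown, the bound Vha68-1 held no DRE core in this window while the unbound Vha68-2 held 1, and the bound Vha16-5 held 1 while the unbound Vha16-2 held none. The window does not reach the Vha68-1 summits of replicates 1 and 2, 375 and 377 bp upstream. Within 500 bp of its strongest conservative summit Vha68-1 had 2 DRE cores, the nearest centred 280 bp away.

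The other searched sequences were compared with all promoters in the same way, with no test. The core of the promoter E-box was in 8 members (24.2%), 4 of them bound, beside 17.6% of all protein-coding promoters. In a window of 500 bp around every annotated start site the share was 42.4%, beside 31.0%. The Motif 1 core was in 4 (12.1%), Vha26, Vha68-2, Vha100-1 and Vha14-1, beside 7.69%. The CLEAR-type E-box, the sequence class bound by Mitf and its mammalian relatives at lysosomal genes, was in 3 (9.09%), Vha44, VhaAC45RP and VhaM9.7-d, beside 4.2%. In the window of 500 bp it was in 7 members (21.2%), beside 8.6%. The GAGA repeat was in 2 (6.06%), Vha100-2 and Vha100-5, beside 5.86%, and the TATA box in 17 (51.5%), beside 45.8%. A match is a description of the letters and not a measured binding site.

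The same sequences were also searched around the summits themselves, where 12 members are few and no test was made. Within 50 bases of the strongest summit a DRE was found in 0 of 12 bound members, beside 16.3% of 3624 promoter summits of the conservative list. The DRE core was found in 2 of 12 (Vha36-1 and VhaM9.7-a), beside 32.8%, and at Vha36-1 its centre lay 0.5 bp from the summit. The promoter E-box core was found in 2 of 12 (Vha44 and VhaSFD), beside 11.5%, and its centre lay 2.5 bp from the summit of Vha44. The TATA box was found in 1 (Vha16-1), beside 11.4%. The Motif 1 core, the CLEAR-type E-box and the GAGA repeat were found in 0 of 12, beside 3.78%, 1.77% and 4.22%.

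Other genes of V-ATPase assembly and of the lysosome were read from 4 lists, in which 20 of 41 genes (48.8%) were bound, beside 29.7% of all protein-coding genes. Of these 20 bound genes, 13 were in all 3 replicate lists, beside 57.6% of all bound protein-coding genes. No test of these lists was made. The bound genes of these lists had a median signal percentile of 72.3, beside 64.5 for all bound protein-coding genes and 45.2 for the bound V-ATPase genes, and these differences were not tested. In the assembly and regulation list 3 of 6 were bound, with signals of 574 at CG7071 and 425 at Rbcn-3A, a rabconnectin required for V-ATPase function in flies. Mitf, a transcription factor that activates V-ATPase genes in flies, was not bound. In the scaffold that carries TORC1 on the lysosome 4 of 7 were bound, with signals of 414 at RagC-D, a Rag GTPase, and 389 at Lamtor3, a Ragulator subunit. The list of lysosome fusion genes had 7 of 11 bound, with 1060 at Vps16A and 665 at Vps39, both of the HOPS tethering machinery. Of the lysosome membrane and enzyme genes 6 of 17 were bound, with 924 at spin, a lysosomal transporter gene, and 303 at Npc2a, a sterol-binding protein gene.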

How the data were processed

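Peaks of 3 ChIP-seq libraries were read from the lists the authors deposited, on assembly dm6 per the file headers. For each replicate there is 1 ranked and 1 thresholded list, and for the whole series 4 of each, 1 of them named conservative; the other thresholded series lists are called a, b and c from longest to shortest. The deposited score is scaled from the irreproducible discovery rate (IDR) and reaches at most 1000. The signal is the value of the authors' peak caller on a scale not stated. The −log10 value and the other columns (summit offset, intervals compared) were also deposited by the authors. For the aligner, the peak caller and the IDR version, nothing is given in the sources used here.

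Summits were matched to start sites of every annotated transcript (Ensembl BDGP6.54, release 115, without transposable elements) with Python 3.11.15, pandas 2.3.3 and numpy 2.4.6. The summit matching was tested on simulated data. Every V-ATPase gene is named, and of the other lists the 2 bound genes of highest signal per list. The printed promoters are a subset of those the rule allowed, chosen after the values were seen. The members and gene lists were chosen with earlier results of these data known. With 1 group there is no contrast and no test was made. Alternatives changed the distance (250 or 1000 bp), peaks, lists, start sites and gene assignment, and left out each replicate.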

Additional observations from a re-analysis of the deposited data

How the results depend on the processing

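The count of 12 bound V-ATPase genes stayed between 10 and 13 when the distance, the start sites, the gene assignment or the series list was changed. It also did so in the list of replicate 3, and was 8 in that of replicate 1. The share of all protein-coding genes moved too. It was 26.8% at 250 bp (members 33.3%) and 32.4% at 1000 bp (36.4%). With 1 start site per gene it was 28.0% (36.4%), and with the nearest gene only 22.9% (30.3%). In series lists a, b and c it was 32.4%, 28.8% and 26.4% (36.4% in each). In replicates 3 and 1 it was 28.6% (39.4%) and 21.1% (24.2%). The count of members was 5 (15.2%, beside 19.7% of all protein-coding genes) with the upper 50% of peaks by signal. It was 7 (21.2%, beside 22.3%) in the list of replicate 2, so in both the members' share was below the background. Taking peaks of score 830 or more in the ranked series list, an alternative chosen after seeing the data, gave 13 by adding Vha55. The count of 5 genes in all replicate lists (15.2%, beside 17.3%) was 3 at 250 bp (9.09%, beside 15.4%), 2 with the upper 50% of peaks (6.06%, beside 11.3%) and 2 with each summit given to its nearest gene only (6.06%, beside 11.5%). It was 7 at 1000 bp (21.2%, beside 19.1%), where the members' share turned above the background. It was 2 when summits had to lie within 100 bp of each other, a setting for which no background was taken. Leaving out each replicate in turn gave 5 to 7, above the background only without replicate 2 (21.2%, beside 19.6%). At 1000 bp the added genes were Vha100-2, through its internal start site and not the one at its conservative summit, and Vha13. The upper 50% keeps fewer peaks and the smaller distances admit fewer summits by construction; the cause of the lower count in replicate 2 was not tested. The 20 bound partner and lysosome genes ranged from 14 to 22. The 14 (34.1%) came with the upper 50% of peaks (beside 19.7%), the nearest gene only (22.9%) and the list of replicate 1 (21.1%). The 22 (53.7%) came with series list b (28.8%). Signal percentiles of single genes stayed within the spread between replicates (1 SD) in 30 of 47 alternatives, a count that says little about stability. A change of distance mostly returned the same peak and value, and a gene with at most 1 replicate peak has no such spread. Against the replicate lists more values lay outside the spread than within it. Sequence shares stayed within their 95% counting interval in 6 of 7 when the window was 500 bp around each start site. The exception was the promoter E-box core, 24.2% against 42.4%, and the CLEAR-type E-box moved from 9.09% to 21.2% within its interval. No comparison of conditions was possible because there is 1 group. The shares of the members and of all protein-coding genes come from the same lists, and no paired test of them was made. The unknown depth limits what absence from a list means: a member below the threshold was not detectable at that threshold.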
